A study of Labeotropheus fuelleborni x Mchenga conophoros and Petrotilapia nigra x Mchenga conophoros and Petrotilapia nigra x Aulonocara baenschi with 10 samples.

Results

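Brain gene expression of F1 hybrid males sired by Petrotilapia nigra was set against that of F1 hybrid males sired by other rock-dwelling cichlids of Lake Malawi. The members were the 8 dyad males of the 10 males measured, chosen by the sire named in their labels: 4 with a Petrotilapia nigra sire and 4 with a Maylandia zebra or Labeotropheus fuelleborni sire. The 2 males tested alone stayed out of the comparison. The 4 Petrotilapia-sired males were 2 brothers whose dam was Aulonocara baenschi and 2 brothers whose dam was Mchenga conophoros. The 4 other-sired males were 2 brothers from Labeotropheus fuelleborni and Mchenga conophoros and 2 brothers from Maylandia zebra and Tramitichromis intermedius. These broods are called Petrotilapia x Aulonocara, Petrotilapia x Mchenga, Labeotropheus x Mchenga and Maylandia x Tramitichromis, sire first. Every male was an F1 cross of a rock sire with a sand dam, and whole brain was taken after a bout of courtship in a tank that offered both a rock and a sand habitat. In each brood 1 brother had courted over rock (social rock, labelled as rock-like behavior) and the other had built a bower and courted over sand (social sand, labelled as sand-like behavior). Social context was therefore balanced between the sires and entered the test as a covariate. Sample titles mark the social rock brother DOM and the social sand brother SUB. The study held that dominant and subordinate seem not to describe these males. It reports that social rock brothers were always the larger, so context and body size cannot be told apart.

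Each side held only 2 broods, and brothers of a brood are not independent samples of a sire. Dams differed as well, with Mchenga conophoros on both sides and Aulonocara baenschi or Tramitichromis intermedius on 1 side each. A difference due to the sire and a difference between broods or dams cannot be told apart here. A permutation of the 2 against 2 broods could not reach a two-sided exact p below 0.333.

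Rock-dwelling and sand-dwelling lineages are the deep split among the cichlids of Lake Malawi, and rock males and sand males court in different ways. Some of the genes below belong to chemical synapses. At an excitatory synapse, glutamate is loaded into vesicles by a vesicular transporter, released by the SNARE fusion proteins, sensed by receptors such as the AMPA type on the next cell, and cleared by transporters on astrocytes. Potassium channels of glia and ion pumps then restore the ion gradients, at a high cost in mitochondrial energy.

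The counts covered 32455 loci. Totals were 206320 to 694114 in the Petrotilapia-sired libraries and 250677 to 565415 in the other-sired libraries, and the sides overlapped (exact permutation test over the 8 libraries of both contexts, two-sided, p = 0.857). At least 1 count was found for 11357 to 16208 loci on the Petrotilapia side and for 11809 to 16629 on the other side (exact permutation p = 0.943). These permutations did not hold context fixed, and depth followed context. Totals were 206320 to 335551 in social sand libraries and 492489 to 694114 in social rock libraries. Loci with at least 1 count numbered 11357 to 13199 and 15483 to 16629 in that order. Social sand values, and gaps between brothers, thus carry more counting error. The most abundant locus, which has no name here, took 12.5% to 16.7% of the counts in the 4 Petrotilapia-sired libraries and 11.6% and 15.5% in the Maylandia x Tramitichromis libraries, but 0.0511% and 0.110% in the Labeotropheus x Mchenga libraries. The Labeotropheus x Mchenga social rock male also had the largest scaling factor, 1.31 against 0.857 to 1.05 in the other 7 libraries, and the lean of the named genes below is given with and without it. After the low-count filter, 5619 genes were tested with edgeR's quasi-likelihood test. Levels are given as CPM, the gene's counts relative to the library's total over the tested genes after scaling by TMM. They compare libraries for 1 gene and not genes with each other.

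The label of whole brain was set beside cell type markers with a name. Names came only from the study's list of genes that differed between social rock and social sand males in these samples. The sums are therefore no independent check of the tissue. The 8 loci of neuron markers, among them the SNARE protein SNAP25-B, summed to 2079 to 2290 CPM in Petrotilapia-sired and 2523 to 4293 CPM in other-sired social rock males. In social sand males the neuron sums were 1304 to 1404 CPM and 962 to 983 CPM, so the order of the sides turned between the contexts. The 6 loci of astrocyte and radial glia markers gave 2094 to 2462 CPM against 3715 to 5225 CPM in social rock males, and 927 to 931 CPM against 799 to 1277 CPM in social sand males. In the social rock males slc1a2 alone, 1 of the 6 and described below, gave 847 and 1051 CPM against 2687 and 1877 CPM. The gap in that sum thus rests in large part on 1 gene. For the 4 myelin loci the sums were 1549.6 to 1990.1 CPM against 1997 to 3475 CPM in social rock males and 687 to 747 CPM against 427 to 892 CPM in social sand males. The 2 loci of immune cell markers lay between 113 and 257 CPM in all 8 brains, and the only endothelial marker with a name was at 0 in the 4 social sand males. In social rock males the neuron, astrocyte and myelin sums of the sides thus did not overlap, and in social sand males those of astrocytes and myelin did. The immune sums in social rock males did not overlap either, but there the Petrotilapia side was the higher, at 132 to 134 CPM against 113 to 129 CPM. In social sand males the immune sums overlapped. For myelin in social rock males the sides were parted only by 1990.1 and 1997 CPM. Exact permutation p-values over the 8 libraries of both contexts were 0.714 for neurons, 0.371 for astrocytes and radial glia and 0.571 for myelin. These permutations did not hold context fixed, and the sums differed widely between contexts. They could therefore hardly show a difference confined to social rock males. The markers fixed for erythrocytes, pituitary, photoreceptors and skeletal muscle had no name paired with a locus and were not analysed here. In whole brain, fewer cells of a type and less RNA per cell cannot be told apart.

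No gene was called different between Petrotilapia-sired and other-sired brains. A call asked for a Benjamini-Hochberg adjusted p under 0.05 over the 5619 genes and a fold of at least 2, and edgeR called 0 of them (0%), with a smallest adjusted p of 0.393. Limma-voom also called 0, and DESeq2 called 1 gene without a name, lower in the Petrotilapia-sired males. The count depended on the filter and on single broods: edgeR called 104 genes with no low-count filter, 93 with a filter of CPM above 1 in 3 libraries, 0 to 13 without 1 library, 37 without the Petrotilapia x Mchenga brood and 52 without the Maylandia x Tramitichromis brood. The most without 1 library, 13, were called without the Petrotilapia x Mchenga social rock male. At an unadjusted p under 0.05, edgeR had 313 genes (5.57%), against 280.95 that this threshold alone would give, 162 of them (2.88%) higher and 151 (2.69%) lower in the Petrotilapia-sired males. The median size of the log2 difference was 0.31 and its median standard error 0.47. The unadjusted 95% interval reached a median of 1.0 on the log2 scale, a 2-fold difference, to each side of the estimate. The fit took brothers as independent. Changes under that size were not detectable for most genes, and larger changes could also miss a call, which asked for an adjusted p. The 4 libraries of a side lay wholly above or below the 4 of the other in 129 genes (2.30%), 81 of them (1.44%) higher and 48 (0.854%) lower in the Petrotilapia-sired males. The means of the 2 broods of a side lay wholly above or below those of the other in 1886 genes (33.6%), 973 (17.3%) higher and 913 (16.2%) lower. A fitted fold of at least 2, whatever its p, was found in 439 genes (7.81%).

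Names could be given only to genes that the study itself had listed for a difference between social rock and social sand males in these samples. That table named 812 loci of the count table, of which 449 passed the filter. The gene groups below hold only such genes, so they were chosen on these libraries and are no independent evidence of a direction. None of the named genes had its 4 Petrotilapia-sired libraries wholly above or below the 4 others. Each side holds both contexts and these genes were listed for a gap between contexts. Such a separation was therefore hardly possible for them, and the count is no result about the sires. Within each context taken alone, both Petrotilapia-sired males lay below both other-sired males in rock and again in sand for 167 of all 5619 genes (2.97%), and above both for 177 (3.15%). Among the 449 named genes these counts were 22 (4.90%) and 0. A difference below 0 was found in 358 of the 449 (79.7%), with a median of -0.36, and 40 (8.91%) were lower at an unadjusted p under 0.05. The groups below are part of these 449, and a share or median near those values is no result about a group. Values below run in the order Petrotilapia x Aulonocara, Petrotilapia x Mchenga, then Labeotropheus x Mchenga, Maylandia x Tramitichromis, and differences are log2 values of the Petrotilapia side minus the other side from the edgeR fit with context.

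Among the genes that handle glutamate, none passed the test. slc1a2 encodes the transporter by which astrocytes take glutamate up from the synapse. Its level was 847 and 1051 CPM in the Petrotilapia-sired social rock males against 2687 and 1877 CPM in the other-sired ones, and 259.8 and 227 CPM against 593 and 322 CPM in the social sand males. Both Petrotilapia-sired brothers thus lay below both counterparts in each context. The difference was -1.10 ± 0.27 (SE; 95% interval -1.66 to -0.54), with an unadjusted p of 0.000759, the smallest of any named gene, and an adjusted p of 0.393 from edgeR. It was -1.25 between the social rock males and -0.84 between the social sand males, in log2 CPM. Without the Maylandia x Tramitichromis brood, which leaves 1 brood on the other side, it was -1.37 and passed the threshold (edgeR's adjusted p = 0.0407). Without the Labeotropheus x Mchenga brood instead, edgeR called 0 genes. In log2 CPM the slc1a2 difference was -1.36 between the broods with a Mchenga dam and -0.72 between the broods with other dams.

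gria2 encodes the AMPA receptor subunit that sets the receptor's low permeability to calcium. In social rock males it was at 315 and 279.5 CPM against 674 and 382 CPM, and in social sand males at 75.8 and 71.1 CPM against 269.5 and 105 CPM. The sides did not overlap within either context, and the Labeotropheus x Mchenga brothers were the highest of each. Its difference was -1.05 ± 0.33 (SE), with an adjusted p of 0.654 from edgeR. The vesicular glutamate transporter 1 gene, LOC101484681, which fills vesicles with glutamate, was at 64.4 and 121 CPM against 207 and 167 CPM in social rock males. In social sand males it was at 16.2 and 54.1 CPM against 116 and 41.8 CPM, where the sides overlapped. The difference was -1.04 ± 0.42 (SE), with an adjusted p of 0.812. Of 11 tested genes for glutamate receptors and the postsynapse, 0 were called, 1 had an unadjusted p under 0.05 and 9 had a difference below 0, with a median of -0.51 beside -0.36 over all 449 named genes. Without the Labeotropheus x Mchenga social rock male 6 of 10 were below 0, with a median of -0.14.

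**Figure D1:**
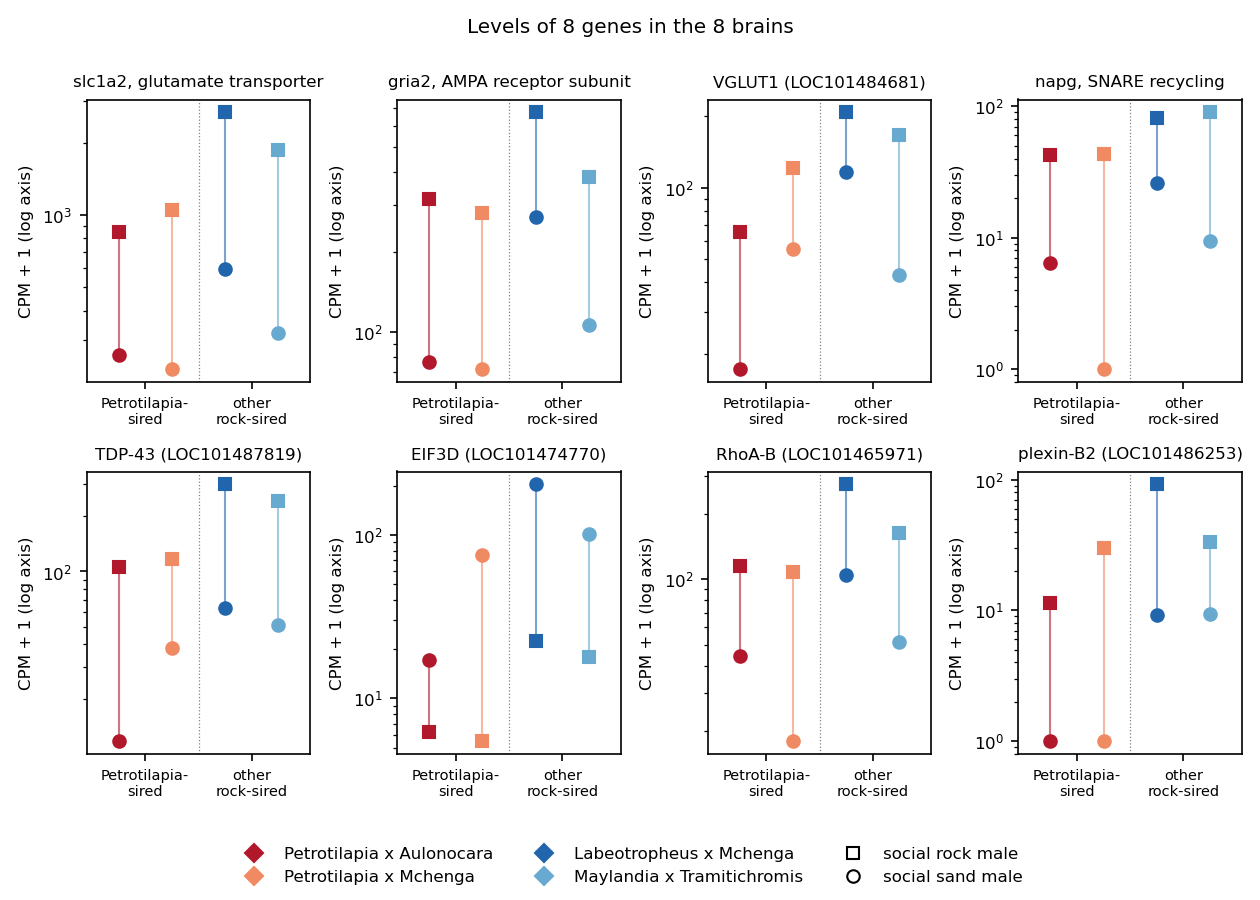
Levels of 8 genes in the 8 dyad brains, as CPM plus 1 on a log axis, with 1 column for each brood. Squares are social rock males, circles are social sand males and a line joins brothers. For slc1a2 the Petrotilapia-sired squares, at 847 and 1051 CPM, lie below the other-sired squares at 2687 and 1877 CPM, and the circles keep that order.

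Of 25 tested genes of transmitter release, 0 were called, 2 had an unadjusted p under 0.05 and 20 had a difference below 0, with a median of -0.28, close to the share and median of all named genes. Without the Labeotropheus x Mchenga social rock male 14 of 24 were below 0, with a median of -0.09. napg encodes gamma-SNAP, which helps take spent SNARE complexes apart. Its level was 41.7 and 42.5 CPM against 80.4 and 88.9 CPM in social rock males, and 5.41 and 0 CPM against 24.9 and 8.36 CPM in social sand males. The 4 social sand libraries held 0 to 6 counts of it, so those values carry a large counting error. The difference was -1.35 ± 0.58 (SE), with an adjusted p of 0.814. SNAP25-B (LOC101468238), a core SNARE protein of the presynaptic membrane, had a difference of -0.53 ± 0.29 (SE; 95% interval -1.14 to 0.08). Its levels of 337 and 492 CPM against 847 and 464 CPM in social rock males overlapped between the sides. Among 6 genes of neuropeptides and dense-core vesicles, 0 were called and the median was -0.19, or 0.01 without the Labeotropheus x Mchenga social rock male. The smallest p of that group belonged to cpe, carboxypeptidase E, which trims neuropeptide precursors. It was at 115 and 152 CPM against 247 and 163 CPM in social rock males and at 75.8 and 47.4 CPM against 104 and 79.4 CPM in social sand males. The sides did not overlap within a context, yet the difference of -0.61 ± 0.33 (SE) had an adjusted p of 0.895.

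Genes of cell adhesion and axon guidance gave no call either. Of 13 tested, 0 were called, 2 had an unadjusted p under 0.05 and 12 had a difference below 0, with a median of -0.47, and of -0.16 without the Labeotropheus x Mchenga social rock male. Plexin-B2 (LOC101486253), a receptor for semaphorins, was at 10.4 and 29.1 CPM against 91.1 and 32.2 CPM in social rock males. In social sand males it had 0 counts in both Petrotilapia-sired brains and 2 counts in each of the others. The difference of -1.92 ± 0.72 (SE) had an adjusted p of 0.773 and rests on few counts, 19 on the Petrotilapia side and 72 on the other. islr2, a membrane protein of growing axons, was at 80.0 and 101 CPM against 225 and 129 CPM in social rock males and at 43.3 and 16.9 CPM against 87.1 and 41.8 CPM in social sand males. Its difference was -1.05 ± 0.40 (SE), with an adjusted p of 0.798, and the sides overlapped in the social sand males. In log2 CPM the islr2 difference was -1.59 between the broods with a Mchenga dam and only -0.30 between the broods with other dams. For ptpro, a receptor tyrosine phosphatase, the difference was -1.04 ± 0.54 (SE; 95% interval -2.17 to 0.10). The small GTPase RhoA-B (LOC101465971), a switch of the actin skeleton that was named because of its p and stood outside the lists, was at 115 and 107 CPM against 273 and 163 CPM in social rock males. In social sand males RhoA-B was at 43.3 and 16.9 CPM against 104 and 50.2 CPM, again with no overlap, from 8 and 5 counts against 25 and 12. Its difference was -1.14 ± 0.39 (SE) with an adjusted p of 0.714. In log2 CPM the RhoA-B difference was -1.80 between the broods with a Mchenga dam and only -0.34 between the broods with other dams.

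Genes of mitochondrial energy metabolism and of ion transport had medians of -0.63 and -0.50, which were -0.0806 and -0.25 without the Labeotropheus x Mchenga social rock male. The 7 tested genes of mitochondrial energy metabolism were all below 0, 2 of them at an unadjusted p under 0.05 and 0 called. NDUFV1 (LOC101480862), a subunit of respiratory complex I, was at 34.8 and 15.7 CPM against 76.8 and 45.4 CPM in social rock males and at 0 and 6.77 CPM against 16.6 and 12.5 CPM in social sand males. Its sides did not overlap within a context, but the social sand values came from only 0 and 2 counts against 4 and 3. Its difference was -1.38 ± 0.60 (SE) with an adjusted p of 0.842. Subunit 6 of the cytochrome b-c1 complex (LOC101474979), part of complex III, was at 71.3 and 47.0 CPM against 229 and 123 CPM in social rock males. In social sand males the same gene was at 10.8 and 6.77 CPM against 0 and 20.9 CPM, so the sides overlapped there. Of 17 tested ion pumps and channels, 16 were below 0, 1 had an unadjusted p under 0.05 and 0 were called. KCNJ10 (LOC101477345) is the inward rectifier channel by which glia take up potassium. It was at 64.4 and 82.7 CPM against 102 and 221 CPM in social rock males and at 16.2 and 20.3 CPM against 62.2 and 8.36 CPM in social sand males. The difference of KCNJ10 was -1.06 ± 0.49 (SE), with an adjusted p of 0.875.

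Genes of RNA handling and translation held the next smallest p-values with a name. TDP-43 (LOC101487819), an RNA-binding protein of splicing, was at 104 and 116 CPM against 298 and 240.3 CPM in social rock males. In social sand males TDP-43 was at 10.8 and 37.2 CPM against 62.2 and 50.2 CPM. The sides did not overlap in either context, but the social sand values came from only 2 and 11 counts against 15 and 12. The difference was -1.22 ± 0.36 (SE; 95% interval -1.99 to -0.46) with an adjusted p of 0.621 from edgeR. EIF3D (LOC101474770), a cap-binding subunit of the translation initiation factor eIF3, was, unlike slc1a2 and TDP-43, the more abundant in social sand males. It was at 5.22 and 4.47 CPM against 21.4 and 17.0 CPM in social rock males and at 16.2 and 74.4 CPM against 203 and 100.4 CPM in social sand males. Both Petrotilapia-sired males were the lower in each context here too, at 30 counts on the Petrotilapia side and 94 on the other. The difference of EIF3D was -1.76 ± 0.52 (SE), with an adjusted p of 0.625. Of 12 tested genes of the ribosome and translation, 11 were below 0 with a median of -0.36, 1 had an unadjusted p under 0.05 and 0 were called. Of 10 tested chaperones 9 were below 0 with a median of -0.47 and 0 had an unadjusted p under 0.05. Without the Labeotropheus x Mchenga social rock male the medians of the translation genes and the chaperones were -0.10 and -0.07. The smallest p among the chaperones was that of ptges3, a co-chaperone of HSP90 also known as p23, at -1.21 ± 0.61 (SE; 95% interval -2.50 to 0.08).

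Only 3 transcription factors of brain patterning passed the filter, and 0 were called. zbtb18, a zinc finger repressor of the developing cortex in mammals, was at 221 and 318 CPM against 532 and 407 CPM in social rock males and at 119 and 139 CPM against 211 and 176 CPM in social sand males. It was the one of the 3 with an unadjusted p under 0.05, its sides did not overlap within a context, and its difference was -0.70 ± 0.27 (SE) with an adjusted p of 0.798. Among 3 tested genes of retinoid, steroid and nuclear receptor signalling, 0 were called and the median was -0.04. The membrane progestin receptor delta gene (LOC101467345) had the smallest p of these, with a difference of -1.10 ± 0.56 (SE; 95% interval -2.29 to 0.08).

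Groups of other cell types and systems showed no call either. All 3 tested GABA genes were below 0, with a median of -0.61 and 0 at an unadjusted p under 0.05. Among them abat, the enzyme that breaks GABA down, had a difference of -0.61 ± 0.41 (SE), and slc6a11, a GABA transporter, had -0.64 ± 0.46 (SE), or -0.15 without the Labeotropheus x Mchenga social rock male. The value of slc6a11 turned to 0.75 when only the social sand males were fitted. Of 10 tested astrocyte and radial glia genes, slc1a2 and KCNJ10 among them, 0 were called and 9 were below 0, with a median of -0.25. Without the Labeotropheus x Mchenga social rock male 6 were below 0, with a median of -0.01. The glial gene NDRG2 (LOC101478721) had -0.59 ± 0.38 (SE), and 0.32 in the social sand males alone. Of 6 myelin genes 5 were below 0, with a median of -0.37, or 0.08 without the Labeotropheus x Mchenga social rock male. mpz, myelin protein zero, was at 1171 and 908 CPM against 2247 and 1302 CPM in social rock males and at 401 and 426 CPM against 568 and 272 CPM in social sand males. Its difference of -0.41 ± 0.30 (SE) became -0.14 without the Labeotropheus x Mchenga social rock male and 0.0283 without both males of that brood.

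Immune genes had no common side, with 3 of 6 tested below 0, a median of -0.09 and 0 called. CD59 (LOC101486506), a membrane inhibitor of complement, had a difference of -0.68 ± 0.62 (SE), and TAP2 (LOC101483734), a peptide transporter of antigen presentation, had -0.47 ± 0.51 (SE). Both values changed sign, to 0.41 and 0.0554, without the Labeotropheus x Mchenga brood, and that of CD59 was -0.18 without its social rock male alone. TAP2 was at 373 CPM in the Labeotropheus x Mchenga social sand male and between 26.8 and 115 CPM in the other 7 brains. The clock gene cryptochrome-1 (LOC101466601), a repressor of the circadian loop, had 0.64 ± 0.73 (SE; 95% interval -0.90 to 2.18) and was the higher of 2 clock genes tested. The 4 tested genes of detoxification and lipid metabolism were below 0, with a median of -0.28 and 0 at an unadjusted p under 0.05. ncf4, annotated as a cytosolic subunit of the phagocyte oxidase, was one of the 5 most abundant genes with a name. The study's list pairs this locus with a different human gene, SH3D19, so its identity is uncertain. ncf4 was at 4949 and 3909 CPM against 2451 and 4042 CPM in social rock males. In social sand males it was at 7463 and 8378 CPM against 8289 and 8785 CPM. Its difference was 0.17 ± 0.24 (SE; 95% interval -0.35 to 0.69), well within the spread of the libraries.

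Over all 449 named genes the lean was wide and its median small, with larger estimates for single genes such as plexin-B2 (-1.92). The share below 0 of 79.7% stood beside 2917 of all 5619 genes (51.9%), and the median of -0.36 beside -0.02. At an unadjusted p under 0.05, 40 named genes (8.91%) were lower and 0 higher in the Petrotilapia-sired males, beside 111 (2.15%) and 162 (3.13%) of the 5170 genes without a name. The lean depended on context: in log2 CPM the median difference of the named genes was -0.64 between social rock males and 0.13 between social sand males. It also depended on single libraries. Without the Labeotropheus x Mchenga social rock male, 241 of 407 named genes tested (59.2%) were below 0, with a median of -0.11. Without both males of that brood the share was 58.6% and the median -0.09. Without the Petrotilapia x Aulonocara social rock male the share was 66.6% and the median -0.21, and without the Maylandia x Tramitichromis social sand male they were 86.0% and -0.57. Between the broods with a Mchenga dam the median of the 449 was -0.49, and between the broods with other dams it was 0.02. With libraries scaled by total counts alone, without TMM factors, 88.0% of the 449 were below 0 with a median of -0.56, while the median of all genes moved to -0.17. The high neuron, astrocyte and myelin sums of the other-sired social rock males stood on the same side as this lean, and their immune sums on the opposite side. The loci in those sums are themselves genes with a study name, and their part in the lean was not tested.

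**Figure D2:**
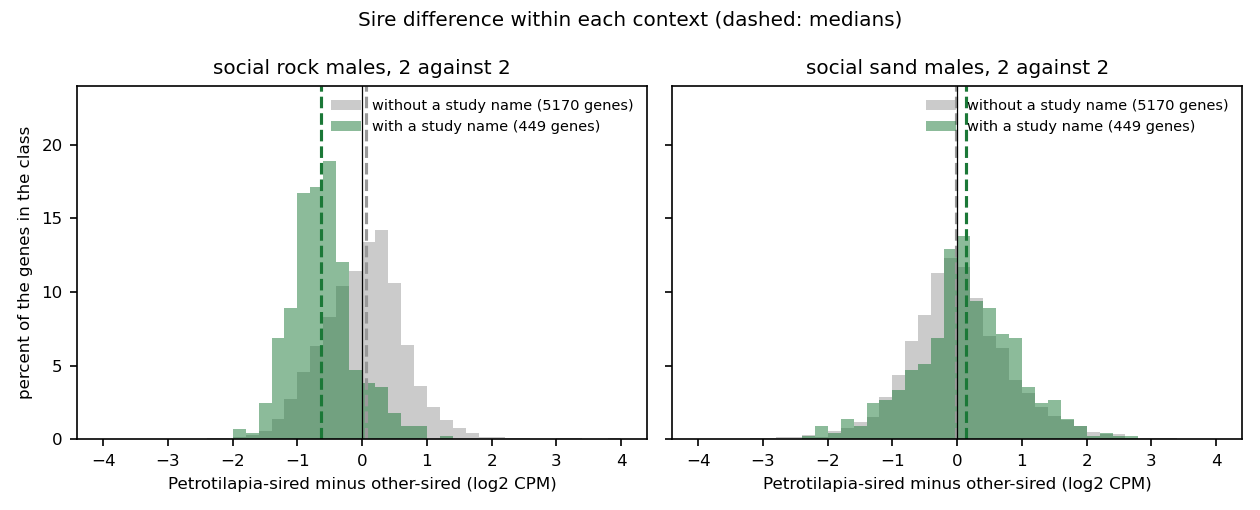
Distribution of the difference between Petrotilapia-sired and other-sired males, in log2 CPM, for 449 genes with a study name (green) and 5170 without (grey), in social rock males on the left and social sand males on the right. Heights are percent of the genes in each class and dashed lines are medians. The median of the genes with a name lies at -0.64 in social rock males and at 0.13 in social sand males.

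Among genes without a name, the smallest p in each direction belonged to loci that were not alike in the 2 broods of a side. These 2 loci were chosen after their values were seen. gene13516 was at 1148 and 15.7 CPM against 19.7 and 13.2 CPM in social rock males and at 1570 and 23.7 CPM against 33.2 and 12.5 CPM in social sand males. Only the 2 Petrotilapia x Aulonocara brothers were high, while the Petrotilapia x Mchenga brothers lay within the range of the other side. Its fitted difference of 5.10 ± 1.10 (SE), with an adjusted p of 0.393 from edgeR, is thus a difference of 1 brood from the other 3. edgeR called gene13516 with no low-count filter (adjusted p = 3.4e-30) and with the filter of CPM above 1 in 3 libraries (adjusted p = 7.2e-32). gene24672 had 1 count over the 4 Petrotilapia-sired libraries and 89 over the others. The 89 were 38 and 35 counts in the Labeotropheus x Mchenga social rock and social sand males and 16 and 0 in the Maylandia x Tramitichromis ones. Relative to the TMM-scaled totals of the tested genes the other side was 85.2 times as high, with an exact 95% interval of 14.9 to 3404 that covers counting error only, and the adjusted p was 0.393. The social sand male of Maylandia x Tramitichromis, at 0, was not separate from the Petrotilapia side. edgeR called gene24672 with no low-count filter and with the CPM filter (adjusted p = 2.1e-07 and 1.6e-07). With dam class (Mchenga or not) as covariate edgeR called it as well (adjusted p = 0.0353).

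Of the 313 genes at an unadjusted p under 0.05, 288 had brood means that did not overlap between the sides, beside 33.6% of all genes, and 76 had no overlap between the 8 libraries of both contexts, beside 2.30%. Both counts come from the contrast that gave the p and are a description.

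**Figure D3:**
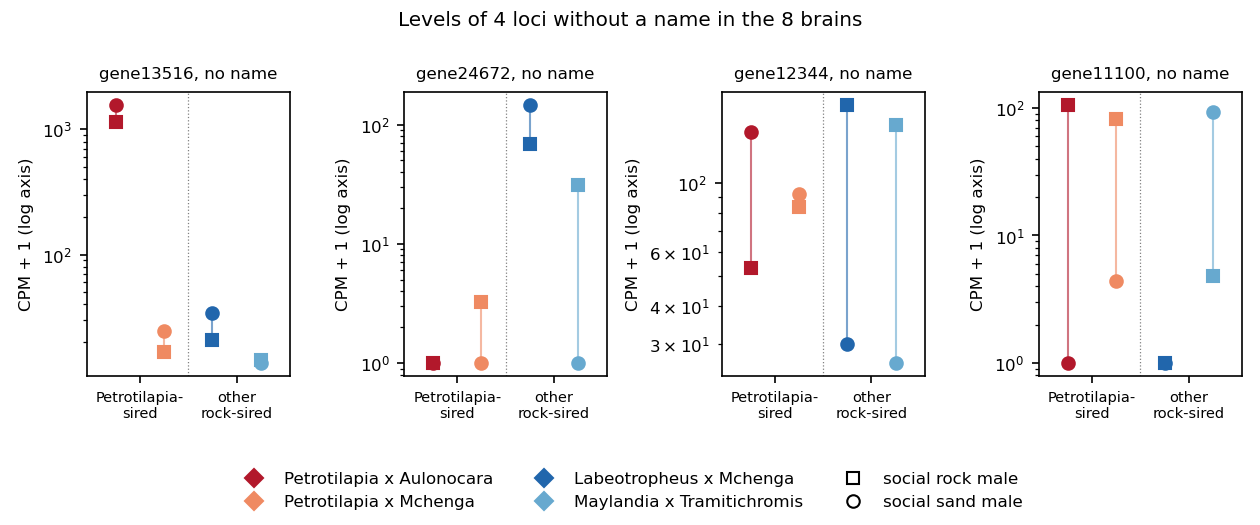
Levels of 4 loci without a name in the 8 dyad brains, as CPM plus 1 on a log axis, with columns, symbols and lines for broods, contexts and brothers. gene13516 is near 1148 to 1570 CPM in the 2 Petrotilapia x Aulonocara brothers and at most 33.2 CPM elsewhere.

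Distances between libraries were taken over all tested genes in log2 CPM. Males of the same context lay 74.9 ± 13.2 apart across the sides (SD of 8 pairs), 59.6 and 80.1 apart within the Petrotilapia side and 66.2 and 83.6 apart within the other side. The closest pair of the same context was a pair across sides, the social rock males of Petrotilapia x Mchenga and Maylandia x Tramitichromis at 50.4. Pairs share libraries, so these distances are a description without a test. The difference between the sides in social rock males had a correlation over genes of 0.0765 with that in social sand males, and the difference between broods with a Mchenga dam one of 0.0250 with that between broods of other dams. The genes share libraries and depth, and these coefficients are a description.

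A second question was whether the gap between social sand and social rock brothers differed by sire. The term was positive where the gap of the Petrotilapia-sired brothers was the more positive. edgeR called 0 of 5619 genes (0%), with a smallest adjusted p of 0.669 and 414 genes (7.37%) at an unadjusted p under 0.05, and DESeq2 and limma-voom also called 0. With brood as a block, which this term allows, 0 were called, 485 (8.63%) had an unadjusted p under 0.05 and the smallest adjusted p was 0.227. The block left every call as it was.

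Ependymin-1 (LOC101485530), a secreted glycoprotein of the brain fluid known from memory work in goldfish, was at 1562 and 2012 CPM against 4620 and 2960 CPM in social rock males, where the Petrotilapia side was the lower, and at 579 and 596 CPM against 381 and 276 CPM in social sand males, where it was the higher. Social sand minus social rock was -1.42 and -1.75 in the Petrotilapia-sired broods and -3.58 and -3.40 in the other-sired ones, in log2 CPM. The term was 1.92 ± 0.45 (SE), with an unadjusted p of 0.000777 and an adjusted p of 0.669, and with the block 1.91 and 0.227. ZFAND5 (LOC101472791), a zinc finger protein that stimulates the proteasome, had gaps of -0.65 and -0.50 against -3.51 and -4.19. Its social sand levels were 37.9 and 50.8 CPM against 8.29 and 4.18 CPM, from 7 and 15 counts against 2 and 1. The size of its gaps thus depends on the prior count. Its term, which rests on the same few counts, was 3.99 ± 0.88 (SE) with an adjusted p of 0.669. pdcl3, a chaperone-like protein of the phosducin family, had 0 counts in both other-sired social sand males and 27.1 CPM in both Petrotilapia-sired ones, with gaps of -0.31 and -0.69 against -3.77 and -3.38. Because of these zeros the size of its fitted term depends on the prior count and is not given.

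In the opposite direction the term was negative. emc2, a subunit of the ER membrane protein insertase, had gaps of -3.22 and -3.13 in the Petrotilapia-sired broods, and of -3.10 and -0.97 in the others. It had 25 and 18 counts in the Petrotilapia-sired social rock males and 0 in both social sand brothers, so the size of those gaps depends on the prior count. edf1, a transcriptional coactivator that also senses collided ribosomes, had gaps of -2.81 and -3.26 against -0.52 and -2.28, with 0 counts in the same males. The phospholipase C enzyme PLCH2 (LOC101475135) was at 4608 and 3768 CPM against 3142 and 5021 CPM in social rock males and at 2040.4 and 514 CPM against 3728 and 3220 CPM in social sand males. Its gaps were -1.17 and -2.86 against 0.25 and -0.64, with no overlap between the sires, and its term of -1.49 ± 0.66 (SE) had an adjusted p of 0.669. Of the loci without a name, gene12344 had the smallest p in the positive direction, with gaps of 1.40 and 0.13 against -2.42 and -2.39. gene11100 had it in the negative direction, with 60 and 36 counts in the Petrotilapia-sired social rock males, 0 and 1 in their social sand brothers, 0 in both Labeotropheus x Mchenga males, and 2 and 22 in the Maylandia x Tramitichromis social rock and social sand males. The term of gene11100 had an adjusted p of 0.669 from edgeR. It was called by edgeR with the filter of CPM above 1 in 3 libraries (adjusted p = 1.6e-06).

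**Figure D4:**
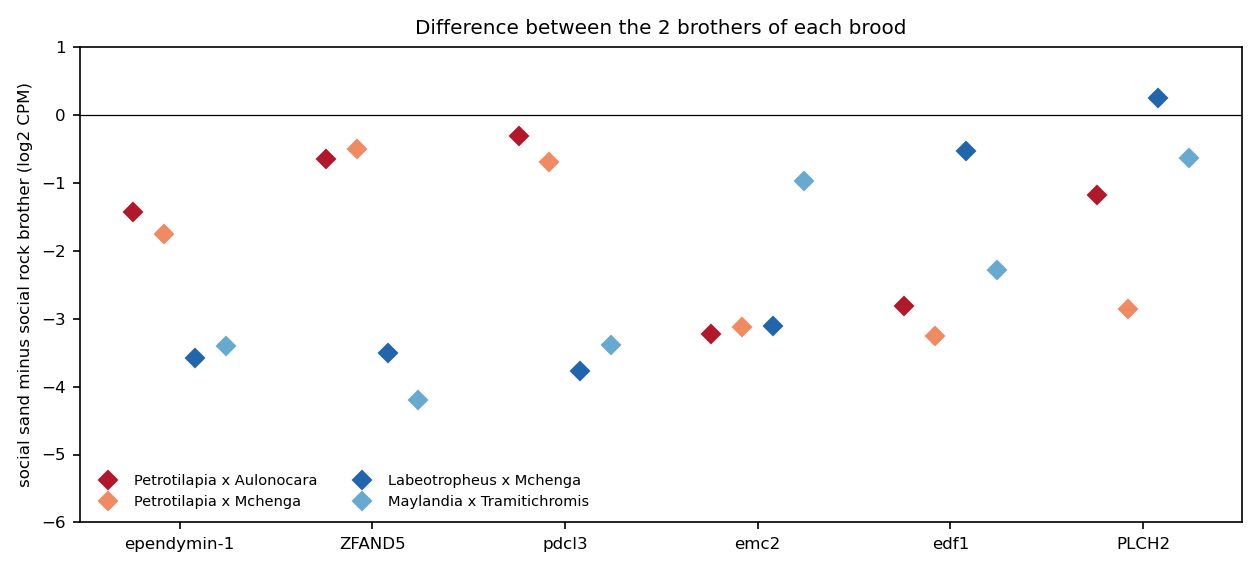
Social sand minus social rock brother, in log2 CPM, for 6 named genes, with 1 diamond for each brood. For ependymin-1, ZFAND5 and pdcl3 both Petrotilapia-sired broods lie above both other-sired broods in this plot. Gaps from few or 0 counts rest on the prior count.

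The named genes as a whole showed the same tilt, which follows from the opposite medians in the contexts given above. The term was above 0 in 345 of 449 (76.8%), beside 48.1% of all genes, with a median of 0.80. With libraries thinned to the smallest total it was above 0 in 257 of 316 (81.3%), beside 47.6% of all genes, with a median of 0.85. Between brothers the median of the 449 was -0.96 and -1.35 in the Petrotilapia-sired broods and -2.15 and -1.97 in the other-sired broods. Over all 5619 genes it was -0.06, -0.09, 0.08 and -0.10 in the same order. The list was chosen for this gap in these samples, so the gaps are a description. Without the Labeotropheus x Mchenga social rock male the median term of the named genes was 0.52, without its social sand brother 1.34, and without the Maylandia x Tramitichromis social rock male 1.15.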

How the data were processed

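Whole-brain mRNA of 10 F1 hybrid males was sequenced from stranded TruSeq libraries. The authors filtered reads at a quality of 20 and trimmed them with the NGS QC Toolkit. TopHat2 2.0.9 placed them on the Maylandia zebra genome MZ_UMD2a, SAMtools 0.19 sorted the alignments and HTSeq 0.6.1 produced the deposited table, which holds raw counts, 1 column a fish. Per the labels, edgeR 3.6.8 was used as well. Which annotation was counted, with what strand setting, and how multiple alignments were treated is not given in the sources used here.

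The 8 dyad libraries were filtered with edgeR 4.0.16 (filterByExpr, minimum count 10), scaled by TMM and fitted with sire and context in R 4.3.3. Called genes had an adjusted p under 0.05 and a fold of at least 2, the study's thresholds. The standard error is the log2 difference divided by the square root of the F statistic. Log2 CPM used a prior count of 2. Alternatives used limma 3.58.1, DESeq2 1.42.0, other scalings, filters, covariates, libraries and depth. The gene test was also run on simulated data. Those data held no brood or context effect, so that run does not cover the dependence between brothers. Figures were drawn with matplotlib 3.10.9.

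Names came from the study's supplementary gene list, with its values unread. Other loci appear by number. The comparison, the 16 gene lists and the alternatives were chosen with earlier results of these data known. The rule named called genes, genes present on 1 side only, the 3 smallest p-values of each list, the extremes of the interaction and the 5 most abundant named genes. Its first 2 classes were empty. RhoA-B, TDP-43, gene13516 and gene24672 were added for their p after values were seen, and the examples printed were picked among all of these. A result that the rule names is left out of the text. P-values measure the spread between these fish. With 4 against 4 libraries the smallest exact p is 0.0286.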

Additional observations from a re-analysis of the deposited data

Results flagged for a closer look

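In 86 pairs of a sire group and a measure (5 library measures and 38 genes), 1 library of 4 stood apart from the other 3 by Dixon's test in 4 pairs, and chance alone flags about 1 in 20. EIF3D (LOC101474770) was at 74.4 CPM in the Petrotilapia x Mchenga social sand male and at 4.47 to 16.2 CPM in the other 3 Petrotilapia-sired males. TAP2 (LOC101483734) was at 373 CPM in the Labeotropheus x Mchenga social sand male and at 26.8 to 75.3 CPM in the other 3 other-sired males. gene24672 was at 2.24 CPM, from 1 count, in the Petrotilapia x Mchenga social rock male and at 0 in the other 3 Petrotilapia-sired males. gene11100 was at 92.0 CPM in the Maylandia x Tramitichromis social sand male and at 0 to 3.78 CPM in the other 3 other-sired males. Groups mix social rock and social sand males, so a library can stand apart by its context.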

How the results depend on the processing

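Few counts, and 2 broods a side, limit every value here. The sire comparison called 0 genes with either other scaling, limma-voom with or without brood as a random effect (correlation of brothers 0.0275), no context covariate, lone males added, thinned libraries, no bound on the fold and an adjusted p under 0.1. It called 1 with DESeq2, 2 with brothers summed and 6 with dam class as covariate. Dam class parted Mchenga from other dams, so Aulonocara and Tramitichromis were not told apart by it. Social rock males alone gave 7 and social sand males alone 1. With no low-count filter it called 104, of which 68 had not been tested before, 15 had no overlap of libraries and 63 had most of their summed CPM in Petrotilapia x Aulonocara. With CPM above 1 in 3 libraries it called 93. Broods with a Mchenga dam alone gave 67 and broods of other dams 78. Each of these fits set 1 brood against 1 brood and took brothers as replicates. Their calls are differences between families, in which sire cannot be told apart from brood. Without 1 library the count ran from 0 to 13, the most without the Petrotilapia x Mchenga social rock male (13) or its social sand brother (6), and then 2 without the Maylandia x Tramitichromis social rock male and 1 each without the Petrotilapia x Aulonocara social rock male and the Maylandia x Tramitichromis social sand male. Without both males of Petrotilapia x Mchenga it was 37, of Maylandia x Tramitichromis 52, and of either other brood 0.

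Of the lists, astrocytes and radial glia gained 1 call (slc1a2) without Maylandia x Tramitichromis. Transcription factors of brain patterning gained 1 with no filter, 1 with the CPM filter and, leaving out 1 library, 0 to 1. The interaction called 8 with the CPM filter, and 0 to 1 without 1 library, the 1 without the Labeotropheus x Mchenga social sand male. The labels pair brothers by cross, but no paired analysis of the sire difference was possible because sire is nested in brood. For the interaction, brood as a replicate block called 0.

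Signs turned for NDRG2 (0.32), slc6a11 (0.75), mpz (0.0357) and ncf4 (-0.0612) in social sand males alone and for TAP2 (0.45) in social rock males alone. They turned with broods of other dams alone for mpz (0.14), CD59 (0.38) and ncf4 (-0.0112), and without Labeotropheus x Mchenga for mpz (0.0283), CD59 (0.41), TAP2 (0.0554) and ncf4 (-0.0696). Without 1 library, TAP2 ran from -0.78 to 0.37 (the latter without the Labeotropheus x Mchenga social sand male) and ncf4 from -0.00696 (without its social rock brother) to 0.30. The cause was not tested. Scaling by total counts moved the median of all genes to -0.17, with 88.0% of the 449 named genes below 0 and a median of -0.56. The shares of named genes below 0 under each alternative, and the medians of the gene groups without 1 library, were computed after the data were seen.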

Other observations

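Dlx4b (LOC101469773), a homeobox factor of the family that patterns forebrain interneurons, did not pass the low-count filter and was noticed after the alternatives were run. It had 22 and 84 counts in the Petrotilapia-sired social sand males (119 and 284 CPM), 3 and 0 in their social rock brothers, 2 and 1 in the other-sired social sand males (8.29 and 4.18 CPM) and 0 in the other-sired social rock males. It was called in 3 of the alternatives. wdr35, a gene of transport within cilia that was called with no filter and with the CPM filter, had 325 counts in the Petrotilapia x Aulonocara social rock male and 0 to 10 in each of the other 7, so that value is 1 fish.

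The 2 lone males, both sired by other rock species, entered no comparison. Their slc1a2 levels were 2319 CPM (Labeotropheus x Mchenga) and 1956 CPM (Maylandia x Mchenga). Their gria2 levels were 674 and 522 CPM, and those of ependymin-1 (LOC101485530) were 4342 and 5209 CPM. In the same order EIF3D (LOC101474770) was at 126 and 4.68 CPM, zbtb18 at 266 and 403 CPM, and KCNJ10 (LOC101477345) at 74.0 and 124 CPM. The lone Labeotropheus x Mchenga male had 5.14% of its counts in the most abundant locus, against 0.0511% and 0.110% in the dyad males of the same cross.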
